A study of Rattus norvegicus with 6 samples.

Results

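Peripheral myelin transcripts were among the most abundant RNAs of libraries labelled as spinal cord. The 9 genes described here, *Prx*, *Pmp22*, *Egr2*, *Sox10*, *Cldn19*, *Ncmap*, *Drp2*, *Gldn* and *Pmp2*, encode proteins of Schwann cells and of the myelin of peripheral nerves. They were chosen by their symbols, and each of the 9 was found once among the 22050 genes of the deposited table. Compared were 3 RNA-seq libraries of spinal cord tissue from sham rats and 3 from rats with spared nerve injury, the SNI-NP rats. The animals of both groups were male Sprague–Dawley rats aged 8 to 10 weeks. In the SNI procedure the surgeon damages part of the sciatic nerve and leaves its sural branch intact, and the control rats underwent sham surgery. The time after surgery is not used here, and the text of the methods does not state the segment or side of the cord that was sequenced, or whether tissue was pooled. Each library was counted as 1 rat, although the labels give a replicate number and no number of animals. A rat named by its number below is therefore a library, and the p-values measure the spread between these libraries.

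Schwann cells wrap the axons of peripheral nerves, spinal nerve roots and ganglia in myelin, whereas oligodendrocytes make the myelin inside the spinal cord. Both glial types need the transcription factor SOX10, and myelinating Schwann cells in addition need EGR2, which switches on the genes of peripheral myelin. Peripheral and central myelin share some proteins, such as myelin basic protein, and differ in others, since periaxin is typical of peripheral myelin and myelin oligodendrocyte glycoprotein of central myelin. Mutations in *PMP22*, *PRX*, *EGR2* and *PMP2* are known to cause inherited peripheral neuropathies.

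Upstream sequences are shown for *Prx* and *Gldn*, which had the 2 largest fitted differences between the groups, and for *Pmp22*, the most abundant of the genes. They were taken from RefSeq on the GRCr8 build, in which 7 of the 9 genes had an entry, and each line gives the 250 bases before the annotated start, 5′ to 3′. The build differs from the one to which the reads were mapped. The *Prx* window is chr1:91914171-91914420, the *Gldn* window chr8:63575020-63575269 and the *Pmp22* window chr10:48294682-48294931, all on the plus strand. Capitals mark the letters CCAAT, or ATTGG where the motif lies on the other strand.
Prx: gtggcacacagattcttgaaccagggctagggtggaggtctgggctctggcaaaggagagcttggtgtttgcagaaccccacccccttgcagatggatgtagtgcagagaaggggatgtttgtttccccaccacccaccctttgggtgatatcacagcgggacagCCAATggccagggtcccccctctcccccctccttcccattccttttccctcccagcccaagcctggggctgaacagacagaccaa
Gldn: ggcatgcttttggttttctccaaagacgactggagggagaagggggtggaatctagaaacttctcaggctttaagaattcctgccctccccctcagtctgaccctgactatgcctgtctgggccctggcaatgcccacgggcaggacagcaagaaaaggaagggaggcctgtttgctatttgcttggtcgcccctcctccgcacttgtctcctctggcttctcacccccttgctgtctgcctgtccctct
Pmp22: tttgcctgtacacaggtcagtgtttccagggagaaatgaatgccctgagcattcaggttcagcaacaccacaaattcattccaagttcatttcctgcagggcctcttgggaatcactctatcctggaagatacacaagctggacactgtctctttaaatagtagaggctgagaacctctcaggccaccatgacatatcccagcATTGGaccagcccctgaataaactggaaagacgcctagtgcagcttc
*Sox10* and *Pmp2* had no entry and were not searched. The CCAAT motif was present, on either strand, upstream of 4 of the 7 genes searched (*Drp2*, *Egr2*, *Pmp22* and *Prx*). Of all 33469 windows of the same length, 34.0% held it. An EGR-like motif, GTGGGCG, was present upstream of *Cldn19* alone among these genes, against 6.27% of all windows. The longer EGR motif GCGTGGGCG and the SOX-like motifs ACAAAG and ACAATG were each found upstream of 0 of the 7 genes. The shares of all windows were 0.478%, 16.3% and 11.1%. The letters TATAAA lay upstream of *Drp2* and of 12.9% of all windows. The shorter EGR-like motif is part of the longer one, and all matches are descriptions of the letters in these windows.

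Library totals ran from 16670760 to 18151156 estimated counts. Levels are given as CPM, the count scaled by the total of its library, and as FPKM, which is also divided by the length of the gene and was used to compare levels between genes. The counts of the 9 genes were whole numbers in all 54 cases, whereas 2018 genes of the table had a fractional count in 1 or more libraries. At this depth even *Egr2*, the least abundant of the genes, had counts of 893 to 1628.

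The 9 genes together took 2.48%, 2.70% and 2.17% of all counts in the 3 sham rats, and the corresponding shares in SNI-NP rats were 3.07%, 2.44% and 3.05%. The groups overlapped. In bulk tissue, such a share does not tell apart the number of Schwann cells, their RNA per cell and the RNA of other cells.

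The labelled tissue was checked against genes that mark its cells. The markers named here were picked from the marker lists after their values were seen. *Mog*, which encodes myelin oligodendrocyte glycoprotein, averaged 44.2 FPKM over the 6 libraries, against 9496 FPKM for *Pmp22*. Genes of spinal cord neurons were present, with 3.16 FPKM for *Chat*, the motor neuron enzyme that makes acetylcholine, and 16.2 FPKM for *Slc32a1*, the vesicular transporter of GABA and glycine. Genes of sensory neurons, whose cell bodies lie in the dorsal root ganglia outside the cord, were present as well, with 69.2 FPKM for *Avil* and 25.9 FPKM for the sodium channel gene *Scn10a*. All libraries therefore held central and peripheral transcripts side by side, and the share of each was not tested.

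**Figure D1:**
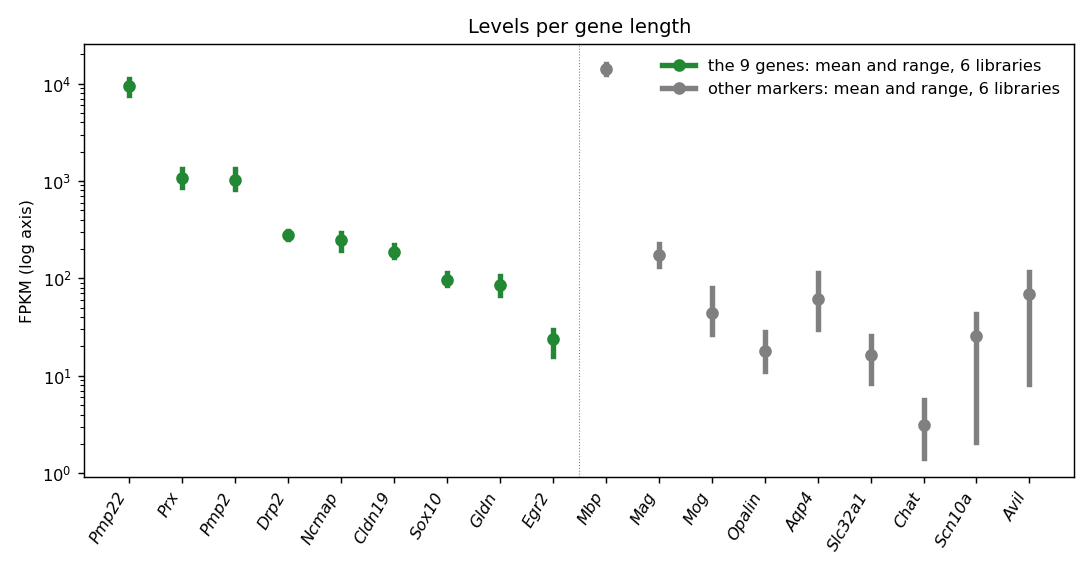
Levels per gene length of the 9 genes and of other markers on a logarithmic axis. Points are means and bars run from the lowest to the highest of the 6 libraries. *Pmp22* lies near 9496 FPKM and *Egr2* near 23.8 FPKM. On the logarithmic axis, the bar of the sensory neuron gene *Scn10a* (2.11 to 42.9 FPKM) is longer than that of any of the 9 genes.

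Per gene length the levels fell into steps. *Pmp22*, which encodes a small membrane protein of compact myelin, was at 9496 ± 1332 FPKM (SD, n = 6) and ranked 5 among all genes of the table. *Prx*, which encodes periaxin, a scaffold on the outer face of the myelin sheath, was at 1079 ± 170.0 FPKM (rank 35), and *Pmp2*, which encodes a fatty acid binding protein of compact myelin, was at 1029 ± 204 FPKM (rank 38). *Prx* and *Pmp2* did not differ beyond their spread, since *Prx* was higher in 5 of the 6 libraries and their ranges overlapped.

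*Drp2*, the dystrophin-related partner of periaxin, was at 276 ± 26.1 FPKM (SD, n = 6). *Ncmap*, which encodes a membrane protein of noncompact myelin, was at 250 ± 42.4 FPKM and *Cldn19*, which encodes a tight junction claudin of the sheath, at 185 ± 21.7 FPKM. These 3 genes kept their order in all 6 libraries, although the ranges of neighbouring genes overlapped. *Sox10* was at 96.3 ± 10.1 FPKM and *Gldn*, which encodes gliomedin, a Schwann cell protein that gathers sodium channels at nodes of Ranvier, at 86.0 ± 16.5 FPKM. *Sox10* exceeded *Gldn* in 4 of the 6 libraries, and this pair was not separated beyond its spread. *Egr2* was lowest, at 23.8 ± 5.24 FPKM (rank 3323), and its range lay below that of *Gldn*.

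Of the regulators, *Sox10* (ENSRNOG00000011305) was at 277, 257 and 279 CPM in the sham rats and at 343, 283 and 311 CPM in the SNI-NP rats. The groups did not overlap, but SNI-NP rat 2 lay close above sham rat 3. *Egr2* (ENSRNOG00000000640) was at 69.6, 95.4 and 52.2 CPM in the sham rats and at 88.6, 65.5 and 89.7 CPM in the SNI-NP rats. Its highest and its lowest library were both sham rats, so the groups overlapped completely.

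Of the genes of compact myelin, *Pmp22* (ENSRNOG00000003338) was at 16287, 17527 and 13911 CPM in the sham rats and at 19640, 15818 and 20311 CPM in the SNI-NP rats. SNI-NP rats 1 and 3 were above every sham rat, whereas SNI-NP rat 2 lay within the sham range. *Pmp2* (ENSRNOG00000022707) was at 1301, 1786 and 1120 CPM in the sham rats and at 1669, 1161 and 1283 CPM in the SNI-NP rats. Sham rat 2 had the highest level of *Pmp2*, and all SNI-NP rats lay within the sham range.

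Of the genes of the outer sheath, *Prx* (ENSRNOG00000018369) was at 4635, 4678 and 4049 CPM in the sham rats and at 6149, 4706 and 5738 CPM in the SNI-NP rats. The groups were separate, but SNI-NP rat 2 exceeded sham rat 2 only slightly. *Drp2* (ENSRNOG00000026704) was at 1715, 2002 and 1720 CPM in the sham rats and at 2054, 1718 and 2031 CPM in the SNI-NP rats. Its highest level was 1.20 times its lowest, the narrowest span among the 9 genes, and the groups overlapped.

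*Cldn19* (ENSRNOG00000007922) was at 290, 303 and 284 CPM in the sham rats and at 377, 307 and 354 CPM in the SNI-NP rats. Its groups did not overlap, again with SNI-NP rat 2 next to sham rat 2. *Ncmap* (ENSRNOG00000048139) was at 98.2, 149 and 104 CPM in the sham rats and at 143, 125 and 143 CPM in the SNI-NP rats, and its highest level was that of sham rat 2. *Gldn* (ENSRNOG00000024082) was at 165, 227 and 160 CPM in the sham rats and at 239, 188 and 251 CPM in the SNI-NP rats, and SNI-NP rat 2 fell within the sham range.

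**Figure D2:**
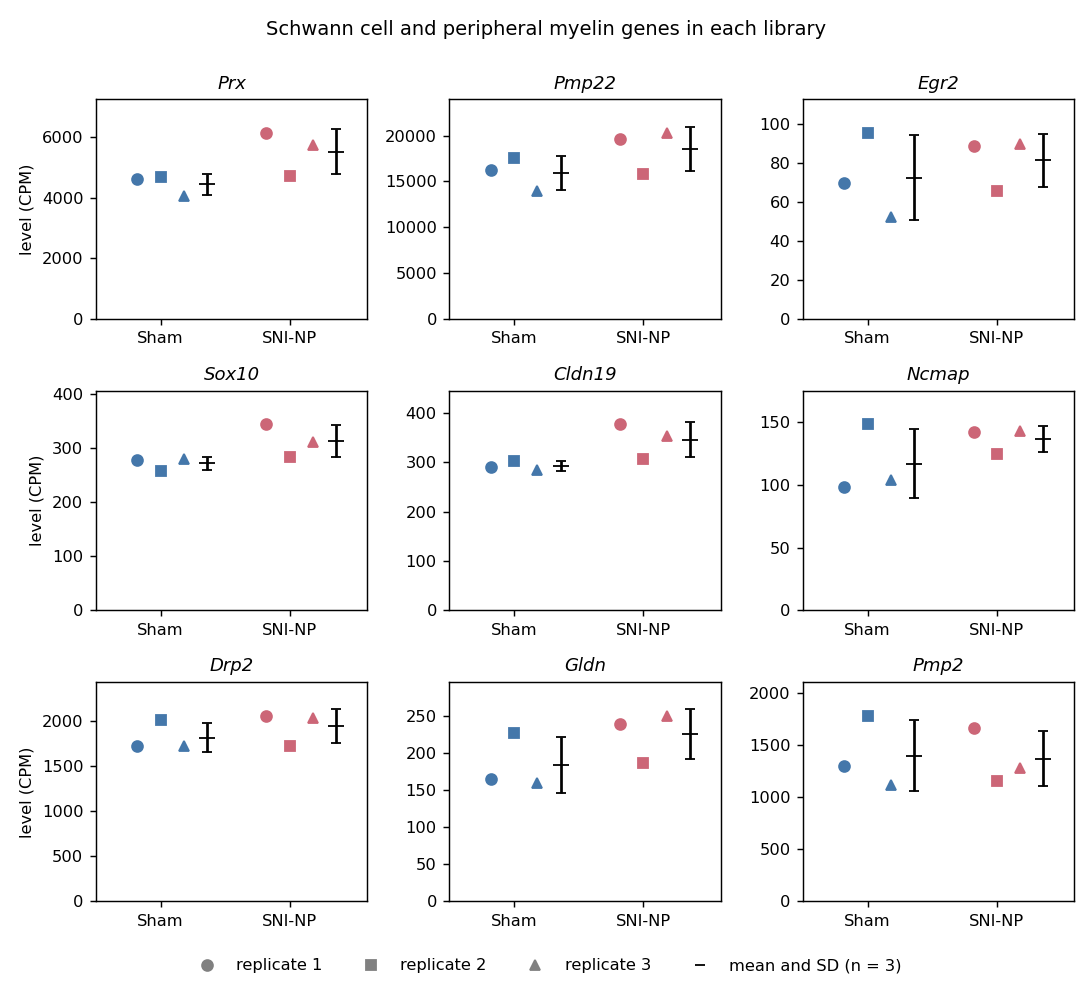
Levels of the 9 genes in each library, in CPM of the library total on axes that start at 0. Symbols are replicates 1 to 3, and the black marks give the mean and SD of each group (n = 3). SNI-NP replicate 2 lies below the other SNI-NP libraries for every gene, and sham replicate 2 is the highest library for *Egr2*, *Ncmap* and *Pmp2*.

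Most of the genes ranked the libraries alike. SNI-NP rat 1 was among the 3 highest libraries for all 9 genes, SNI-NP rat 3 for 8 and sham rat 2 for 6. Sham rat 3 was among the 3 highest for 0 genes and was the lowest library for 6 of them. *Sox10* and *Pmp2* followed the mean standardized profile of the 9 genes less closely than the other 7. Pearson's r over the 6 libraries was 0.71 and 0.72 for them, against 0.87 to 0.97 for the other 7. Each gene is itself part of that mean, which raises its r. Sham rat 2, the highest library for *Egr2*, *Ncmap* and *Pmp2*, was the lowest for *Sox10*. *Prx* followed *Pmp22* most closely, since the log2 ratio of its CPM to that of *Pmp22* had an SD over the 6 libraries of 0.08, whereas the SD of its own log2 CPM was 0.22. *Cldn19*, *Drp2* and *Gldn* had SDs of this ratio of 0.10, 0.11 and 0.12, beside 0.16, 0.13 and 0.28 for their own log2 CPM. The ratio of *Drp2* thus varied little less than its level did. *Pmp2* had the widest SD of the ratio, 0.23, beside 0.28 for its own log2 CPM. The log2 ratio of *Pmp2* to *Pmp22* averaged -3.53 in the sham and -3.77 in the SNI-NP group, with the highest value in sham rat 2 and the lowest (-3.98) in SNI-NP rat 3. Relative to *Pmp22*, the levels of *Prx* and *Drp2* differed between the groups by 0.08 and -0.13 on the log2 scale (SNI-NP minus sham).

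For the comparison of the groups, the quasi-likelihood test of edgeR was applied to 14426 genes with Benjamini-Hochberg adjustment over all of them. All 9 genes had a log2 fold change above 0 (SNI-NP against sham), as did 50.9% of the genes tested, and 0 of the 9 had an adjusted p-value under 0.05. Of all genes tested, 0 (0.0%) passed this threshold by edgeR, and DESeq2 called 210. At an unadjusted p-value under 0.05, 2 of the 9 genes, *Prx* and *Cldn19*, were higher in SNI-NP rats, where 4.91% of all genes tested were called higher. Of the 9, 0 were called lower at that threshold, where 5.94% of all genes were, and in either direction 10.8% of all genes were called. By the DESeq2 Wald test 0 of the 9 genes passed with adjustment, and *Prx* and *Cldn19* again passed without it. The 9 genes had a median log2 fold change of 0.27, beside 0.01 for all genes tested.

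*Prx* had the largest fitted difference, from 4454 ± 351 CPM in the sham to 5531 ± 743 CPM in the SNI-NP group (SD, n = 3 each). On the log2 scale this was 0.36 with a standard error of 0.15, and the edgeR p was 0.0490 unadjusted and 0.458 adjusted. For *Cldn19* the levels were 292 ± 9.50 CPM and 346 ± 35.8 CPM (SD, n = 3 each). On the log2 scale this was 0.29 with a standard error of 0.12, and the edgeR p was 0.0429 unadjusted and 0.446 adjusted. These differences, 1.28-fold and 1.22-fold, did not pass the adjusted threshold.

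The other genes did not pass either threshold. *Gldn* had a log2 fold change of 0.34 (95% interval -0.06 to 0.75) and *Sox10* one of 0.25 (-0.03 to 0.53). The values were 0.28 (-0.11 to 0.66) for *Ncmap* and 0.27 (-0.12 to 0.66) for *Pmp22*. For *Egr2* the value was 0.22 (-0.31 to 0.75), and for *Drp2* it was 0.14 (-0.16 to 0.44). *Pmp2* had the smallest value, 0.02, with an interval from -0.48 to 0.52. These intervals are wide, and a p-value that misses the threshold does not show that the levels were the same.

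**Figure D3:**
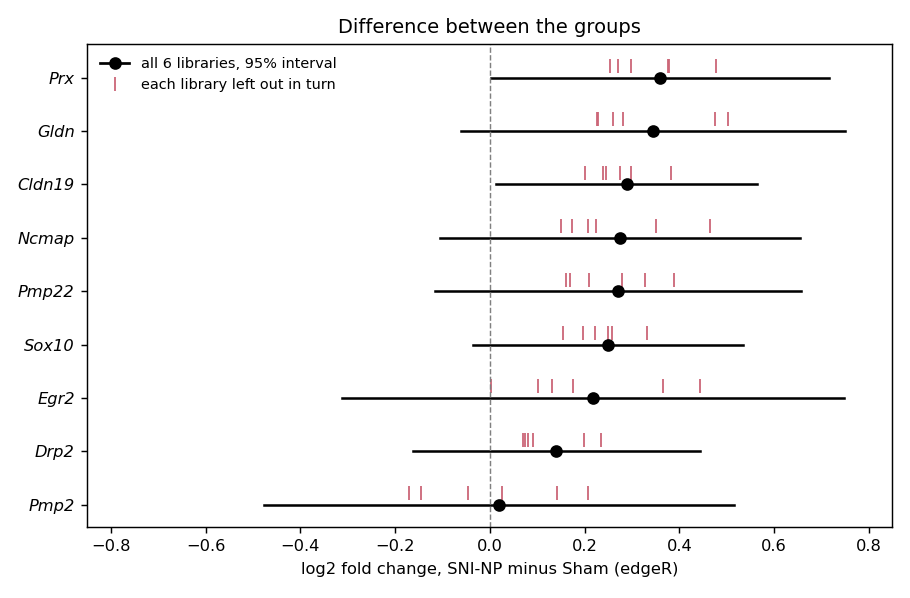
Log2 fold change of each of the 9 genes, SNI-NP minus sham, from edgeR. Black points and lines are the values and 95% intervals from all 6 libraries, and red ticks are the values with each library left out in turn. The interval of *Prx* and of *Cldn19* starts just above 0, those of the other 7 genes include 0, and the ticks of *Pmp2* lie on both sides of 0.

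The groups did not overlap in CPM for 3 of the 9 genes, *Prx*, *Sox10* and *Cldn19*, each with every SNI-NP rat above every sham rat. Of all genes tested 7.38% showed this pattern, and 10.6% showed the opposite one, which 0 of the 9 genes did. The summed level of the 9 genes was 24514 ± 2687 CPM in the sham group and 28529 ± 3601 CPM in the SNI-NP group (SD, n = 3 each), and the groups overlapped, since SNI-NP rat 2 was below sham rats 1 and 2. *Pmp22* made up 64.0% to 66.6% of this sum.

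The unadjusted calls depended on single libraries. Without SNI-NP rat 1, SNI-NP rat 3, sham rat 1 or sham rat 3, 0 of the 9 genes had an unadjusted p-value under 0.05 by edgeR. Without SNI-NP rat 2 there were 5 (*Prx*, *Pmp22*, *Sox10*, *Cldn19* and *Gldn*), and without sham rat 2 there were 2, *Ncmap* and *Gldn*. The log2 fold change of *Prx* lay between 0.25 and 0.48 in these 6 fits, that of *Egr2* between 0.003 and 0.44 and that of *Pmp2* between -0.17 and 0.21. With the library totals alone in place of TMM scaling, with limma on FPKM values and with the replicate number as a block, 0 of the 9 genes had an unadjusted p-value under 0.05.

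The make-up of the libraries moved with these levels. A list of 9 skeletal muscle genes had its highest summed levels, 482 and 203 CPM, in SNI-NP rats 3 and 1 and its next highest, 117 CPM, in sham rat 2, and each of the 9 Schwann cell and myelin genes had its highest level in 1 of these 3 libraries. The list was at 48.5 and 93.6 CPM in sham rats 1 and 3 and at 38.0 CPM in SNI-NP rat 2. Of these low sums, *Pvalb*, a list gene that neurons also express, made up 29.2, 54.1 and 25.6 CPM. *Pvalb* was at 28.9 CPM in sham rat 2 and at 15.0 and 19.2 CPM in SNI-NP rats 1 and 3. *Myh4*, which encodes a fast muscle myosin, was at 2.70, 11.9 and 4.79 CPM in the sham rats and at 40.9, 2.02 and 107 CPM in the SNI-NP rats. All 9 muscle genes had counts in every library, and their part in the result was not tested.

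A list of 15 genes of dorsal root ganglion neurons stood apart in SNI-NP rat 1, with a summed level of 1159 CPM against 3125 to 4948 CPM in the other libraries. *Scn10a* was at 13.7 CPM there and between 88.1 and 279 CPM in the other 5 rats. The list of 18 oligodendrocyte genes had its highest sum, 42491 CPM, in sham rat 1 and between 31172 and 39491 CPM elsewhere, but this sum is mostly *Mbp*, which Schwann cells express as well. *Mog* was at 126, 42.6 and 87.0 CPM in the sham rats and at 66.0, 52.0 and 44.1 CPM in the SNI-NP rats. Sham rat 2, with the lowest *Mog*, had the highest *Egr2*, *Ncmap* and *Pmp2*. The part of these differences in the results for the 9 genes was not tested.

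**Figure D4:**
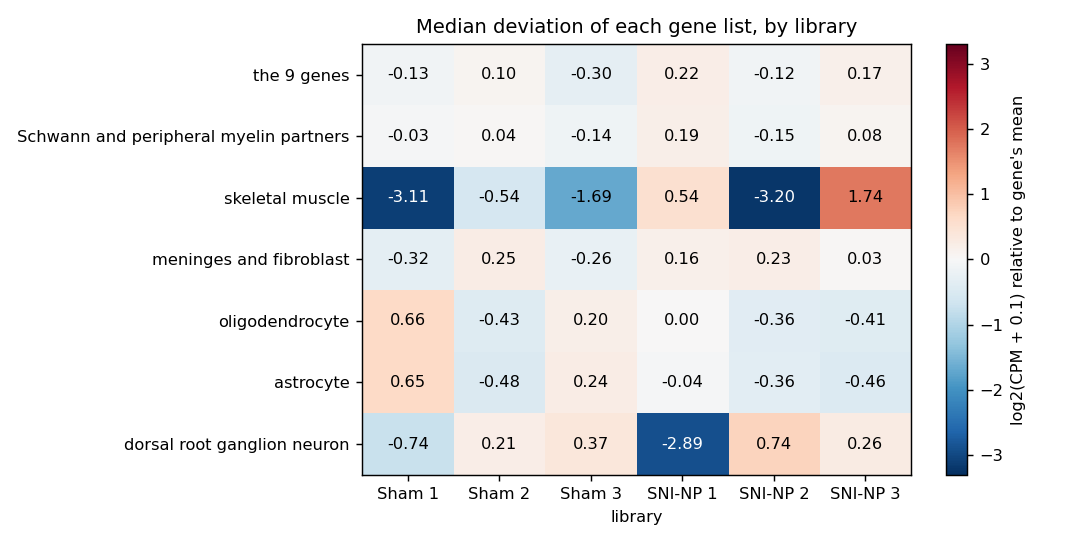
Median over the genes of each list of log2(CPM + 0.1) minus the log2 of the mean CPM of the gene over all libraries (plus 0.1), for 7 lists and 6 libraries. Red is above and blue below that mean. The 9 genes run from -0.30 in sham replicate 3 to 0.22 in SNI-NP replicate 1, the muscle list from -3.20 to 1.74, and the ganglion neuron list reaches -2.89 in SNI-NP replicate 1.

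A list of 30 partner genes of Schwann cells and peripheral myelin gave 28 genes in the table, all of which were tested. Of these, 1 was called higher at an unadjusted p-value under 0.05 (background 4.91%) and 0 lower, 18 had a log2 fold change above 0, and the median was 0.17, beside 0.01 for all genes. That median was 0.05 without SNI-NP rat 1, 0.07 without sham rat 3 and 0.10 without SNI-NP rat 3, and reached 0.24 without SNI-NP rat 2. The list was not limited to genes particular to Schwann cells, and the part of other cells in this median was not tested. The gene called was *Ndrg1*, whose loss causes an inherited neuropathy, whose log2 fold change was 0.33 and standard error 0.13 (adjusted p = 0.446 by edgeR).

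A list of 15 genes of non-myelinating and injury-responding (repair) Schwann cells had 13 genes tested. Of these, 1 was called higher (background 4.91%) and 1 lower (background 5.94%), with a median of 0.02. That median was -0.19 without SNI-NP rat 2 and below 0 in each of the other fits that left out 1 library. The list is not particular to Schwann cells, since the paper uses GFAP as an astrocyte marker. *Gfap* was at 862, 345 and 685 CPM in the sham rats and at 621, 551 and 431 CPM in the SNI-NP rats. The astrocyte gene *Aqp4* was at 562, 223 and 368 CPM and at 340, 149 and 202 CPM. The part of other cells in the median was not tested. *Jun*, the transcription factor that drives the repair state of Schwann cells and is also induced in injured neurons, was at 73.2, 85.2 and 81.1 CPM in the sham rats and at 87.7, 98.2 and 102 CPM in the SNI-NP rats. Its groups did not overlap. The fitted log2 difference was 0.31, its standard error 0.10, and the edgeR p was 0.0155 unadjusted and 0.436 adjusted. *Scn7a*, a sodium channel gene of non-myelinating Schwann cells, was at 140, 213 and 152 CPM in the sham rats and at 138, 62.9 and 97.6 CPM in the SNI-NP rats. It was lowest in SNI-NP rat 2. The fitted log2 difference was -0.70, its standard error 0.30, and the edgeR p was 0.0492 unadjusted and 0.458 adjusted. The repair genes *Gdnf* and *Artn* did not pass the filter on low counts.

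The genes most alike to the mean profile of the 9 genes over the 6 libraries were sought among 13805 other genes. Likeness was Pearson's r of log2 CPM with the mean of the standardized profiles. It is given as a description, since with 6 libraries many genes reach a high value. The 6 most alike were *Stard8*, *Hsd17b11*, *Smad3*, *Nfkb2*, *Emp2* and *Slc25a42*, with r between 0.988 and 0.996. *Stard8* was at 69.8, 85.4 and 64.9 CPM in the sham rats and at 97.1, 75.1 and 92.5 CPM in the SNI-NP rats. *Emp2* belongs to the same family of membrane proteins as *Pmp22*. Among the partner genes, *Erbb3*, the neuregulin receptor subunit of Schwann cells, came ninth with r of 0.986. The other ranked partner genes reached down to -0.10 (*Nrcam*), with 0.96 for *Sh3tc2* and 0.001 for *Gjb1*, the gap junction gene of the sheath. *Mag*, with r of -0.04, was highest in sham rat 1, as was *Mog*. *Tfap2a* had r of -0.59 but averaged 0.89 CPM, below the 1 CPM minimum of the ranking. Of the 9 skeletal muscle genes, 7 had values of r between 0.76 and 0.86, *Neb* had 0.50 and *Pvalb* -0.90. The genes of dorsal root ganglion neurons had values of r between -0.91 and -0.47.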

How the data were processed

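Gene expression was measured by RNA-seq in 3 sham and 3 SNI-NP libraries, grouped by the sample labels. The genome build is the one the study calls Rat6, and its methods limit the data to what they term unique sequences. The submitters' processing notes name FastQC, STAR and HTSeq without versions. The annotation release and the use of strand are not given in the sources used here.

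The deposited table holds estimated counts, which the authors did not normalize. It also holds deposited FPKM values, which the authors scaled by gene length and library total. The estimated counts were rounded to whole numbers, filtered with filterByExpr, scaled by TMM and tested with edgeR version 4.0.16 (quasi-likelihood test, condition as the single term) in R version 4.3.3. Intervals are at 95%. CPM values in the text were scaled by the deposited library totals and not by TMM. DESeq2 version 1.42.0, limma version 3.58.1 on log2(FPKM + 0.1) and log2(FPKM + 1), other scalings and filters, the replicate block and leaving out each library were alternatives. The fit was tested on simulated data.

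The common biological coefficient of variation was 0.223. A count of 0 allows a level of at most 0.180 CPM (3 counts, lowest total, counting error only). Libraries of a group differed by far more than sampling noise, so none was counted as a duplicate.

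The 9 genes and the gene lists were chosen with earlier results of these data known. Named genes were the 9 genes, up to 4 genes of each list with the smallest p-values under 0.05 or else the gene with the most counts, and the 6 most alike genes of at least 1 CPM. Other genes were named after their values were seen. A gene of the lists is not reported here.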

Additional observations from a re-analysis of the deposited data

How the results depend on the processing

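Of 144 values of the 9 genes under 16 alternatives, 137 kept their direction and their side of the adjusted threshold, and the 7 that changed sign were all values of *Pmp2*. Its log2 fold change was -0.0323 with library totals alone, -0.0217 with limma at either pseudocount and -0.0026 without the 10 most abundant other genes, an alternative added after seeing the data, and it ranged from -0.17 to 0.21 when each library was left out. The lowest adjusted p of any of the 9 genes under any alternative was 0.219.

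At an unadjusted p-value under 0.05, the number of the 9 genes was 1 with upper-quartile factors, RLE size factors, all genes kept, a minimum of 10 counts or without the 10 most abundant other genes (in each case *Cldn19*). It was 0 with library totals, limma at either pseudocount or the replicate block, and 0 to 5 when a library was left out. The number of genes in the whole table with an adjusted p-value under 0.05 was 0 by edgeR (1565 unadjusted), 210 by DESeq2, 2 by limma at either pseudocount, and 0 to 222 when a library was left out (222 without SNI-NP replicate 1, 2 without Sham replicate 2). The unadjusted calls, 708 higher and 857 lower, became 470 and 1128 with library totals and 448 and 871 with the replicate block. They ranged from 307 to 920 higher and from 599 to 1388 lower when a library was left out, with 307 higher without SNI-NP replicate 3, 309 without Sham replicate 1, 375 without Sham replicate 3 and 1388 lower without SNI-NP replicate 1. The cause was not tested.

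Between libraries with the same number, the correlations of the deviations from the group means were 0.21, -0.14 and 0.05. Of the 6 libraries, 2 matched best with their own number (Sham replicate 1 and SNI-NP replicate 1). With 3 libraries per group these values cannot show whether libraries with the same number were handled together. The log2 ratio of the summed level of the 9 genes (0.22) was 0.27 with TMM-scaled CPM and 0.21 without *Pmp22*. With at least 893 counts for each of the 9 genes in each library, counting error was small beside the biological coefficient of variation of 0.223.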

Other observations

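The other lists used to check the tissue gave these counts at an unadjusted p-value under 0.05 by edgeR, with 0 genes past the adjusted threshold in each list. Of all genes tested, 4.91% were called higher and 5.94% lower at this threshold. Of the 18 oligodendrocyte genes, 2 were lower in SNI-NP rats and 0 higher, with a median log2 fold change of -0.44. The lower genes were *Ermn*, which encodes a cytoskeletal protein of myelinating oligodendrocytes, at 37.4 ± 13.3 CPM in the sham and 14.5 ± 7.34 CPM in the SNI-NP group, and *Enpp2*, at 60.2 ± 17.2 and 36.2 ± 6.47 CPM (SD, n = 3 each). Of 6 tested genes of oligodendrocyte precursors, 1 was lower (*Tnr*, log2 fold change -0.99) and the median was -0.19. Of 8 astrocyte genes, 1 was lower (*Slc1a2*, the glutamate transporter gene, log2 fold change -1.08), with a median of -0.41. Of 10 neuron genes, 2 were lower, *Slc17a6* (-0.77), which encodes a vesicular glutamate transporter, and *Snap25* (-0.65), with a median of -0.38. Thus these lists had medians below 0, whereas the median was 0.27 for the 9 peripheral myelin genes and 0.02 for the ganglion neuron list. The neuron list is not called central here. Its genes *Tubb3* and *Tac1* were lowest in SNI-NP replicate 1 (494 and 12.2 CPM), where the ganglion neuron list was lowest as well. The difference between the lists was not tested. Without Sham replicate 1 the oligodendrocyte median was -0.12, the astrocyte median -0.07 and the neuron median -0.25. In the fits that leave out 1 library, these medians ranged from -0.66 to -0.12, from -0.74 to -0.07 and from -0.69 to -0.25, and that of the precursors from -0.42 (without SNI-NP replicate 1) to -0.04 (without SNI-NP replicate 2).

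Of 13 tested genes of meninges and fibroblasts, 2 were higher, *Col1a1* (log2 fold change 0.43) and *Pdgfrb* (0.34), with a median of 0.31. Of 5 blood genes, 4 were higher (*Slc4a1*, *Alas2*, *Hbb* and *Hba-a1*). The summed level of the 5 was 1005 to 2367 CPM in sham and 2090 to 4869 CPM in SNI-NP rats, and *Slc4a1* was at 123 CPM in SNI-NP replicate 1 against 12.5 to 52.7 CPM in the other libraries. Of 9 skeletal muscle genes, *Myh4* was higher (3.01) and *Pvalb*, which neurons express as well, was lower (-0.87), with a median of 2.18. The 15 genes of dorsal root ganglion neurons gave 0 calls in either direction, with a median of 0.02 and a log2 fold change of -0.55 for *Nefh*, the one with the most counts. The 9 tested microglia genes also gave 0 calls, with a median of -0.05, and the one with the most counts, *Csf1r*, had a log2 fold change of -0.03. When each library was left out, the median of the meninges list ranged from 0.12 (without Sham replicate 1) to 0.39, that of the muscle list from 0.96 (without SNI-NP replicate 3) to 3.03, that of the blood list from 0.55 (without SNI-NP replicate 1) to 1.35, that of the ganglion neuron list from -0.56 (without SNI-NP replicate 2) to 0.54 (without SNI-NP replicate 1) and that of the microglia list from -0.20 (without Sham replicate 1) to 0.08.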
